A study of Homo sapiens with 12 samples.

Results

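The ABC transporter genes of MDA-MB-468 cells were followed through docetaxel and through a combination of tazemetostat and ipatasertib. Members were the genes whose symbol is ABCA, ABCB, ABCC, ABCD, ABCE, ABCF or ABCG followed by digits only, without ABCA1 and ABCG1. This rule took 44 of the 58735 rows of each count table, and 33 of the 44 had enough counts to be tested. The members were read by role, with the pumps reported to move taxanes set against the rest.

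ABC proteins share a nucleotide-binding domain that hydrolyses ATP. Most use it to push lipids, sterols, conjugated metabolites, peptides or drugs across a membrane. P-glycoprotein, made from ABCB1, expels taxanes, anthracyclines and vinca alkaloids, and its gain is a known route of taxane resistance in tumour cells. The ABCE and ABCF proteins have no membrane domain and work on ribosomes.

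MDA-MB-468 is a human breast cancer line of the basal, triple-negative kind, and all samples carry the genotype label WT. Poly-A RNA was sequenced in 3 libraries (A, B and C) of each of 4 groups. Combination cells received tazemetostat, an EZH2 inhibitor, at 5 µM with ipatasertib, an AKT inhibitor, at 5 µM for 24 h in 2% serum. They had been held for 5 days in tazemetostat or DMSO beforehand and were grown on smaller plates than the docetaxel cells. Docetaxel 24 h and docetaxel 8 h cells received docetaxel, a microtubule-stabilising taxane, at 10 nM for 24 h and 8 h. DMSO cells received the vehicle, with no hours, serum or plate given. No group had a single inhibitor, none had docetaxel with the inhibitors, and no vehicle at 8 h was used here. Drug, pretreatment, serum and plate therefore cannot be told apart in combination against the other groups. The labels do not say that libraries came from separate cultures, so p-values measure only the spread between these libraries.

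Libraries held 29820617 to 45807059 counts, and the first principal component, with 68.1% of the variance, separated the combination libraries from the others. The 8 basal epithelial markers were all expressed, PGR had at most 0.02 CPM (counts scaled by library size) in any group mean and ESR1 0.84 to 1.86 CPM. Summed immune markers reached at most 0.248 CPM in any library. The 5 fibroblast markers summed to 17.6 to 19.6 CPM in combination and 16.5 to 19.7 in docetaxel 24 h libraries. They summed to 12.3 to 13.6 CPM in docetaxel 8 h and 21.1 to 22.4 in DMSO libraries, most of it COL1A1. DCN, also on that list, had 28 counts in combination and 0 in the other groups. The 4 endothelial markers summed to 38.8 to 40.0 CPM in combination, 13.5 to 14.9 in docetaxel 24 h, 11.8 to 17.7 in docetaxel 8 h and 21.7 to 24.2 in DMSO libraries. Most of that was KDR, while PECAM1 and VWF stayed at or under 0.35 CPM in every group mean. The mitochondrially encoded share of counts was 8.49 ± 0.799% in combination, 6.38 ± 1.28% in docetaxel 24 h, 8.55 ± 0.409% in docetaxel 8 h and 4.21 ± 0.244% in DMSO libraries (SD, n = 3 each). These levels moved with the groups compared below, and their part in the results was not tested.

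Promoter windows were read from RefSeq (GRCh38.p14) for 34 of the 44 members, which had 52 windows of 250 bases before a start. The median window held 15.5 CG pairs over the members and 11.0 over all 35116 windows. Stretches are shown for ABCA5, ABCA13, ABCB1 and ABCA12, on which several results turn, trimmed where an annotated exon begins, with CG pairs in capitals. They were chosen with the values known, and ABCA10, with a larger fold change than ABCA5, is not among them. ABCA5 (chr17:69327245-69327383, minus strand, 139 bases) held 24 CG pairs. ABCA13 (chr7:48171208-48171457, plus strand), the upstream start of ABCB1 (chr7:87713324-87713545, minus strand, 222 bases) and ABCA12 (chr2:215138627-215138876, minus strand) held 2, 1 and 1 CG pairs.

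ABCA5: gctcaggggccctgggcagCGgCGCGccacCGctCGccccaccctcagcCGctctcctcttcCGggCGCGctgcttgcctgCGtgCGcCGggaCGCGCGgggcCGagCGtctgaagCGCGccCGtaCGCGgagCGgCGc
ABCA13: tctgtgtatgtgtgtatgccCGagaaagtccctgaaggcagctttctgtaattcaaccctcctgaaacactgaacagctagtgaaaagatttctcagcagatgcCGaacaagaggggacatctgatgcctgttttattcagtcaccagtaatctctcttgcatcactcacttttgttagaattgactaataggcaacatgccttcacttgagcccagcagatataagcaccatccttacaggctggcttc
ABCB1: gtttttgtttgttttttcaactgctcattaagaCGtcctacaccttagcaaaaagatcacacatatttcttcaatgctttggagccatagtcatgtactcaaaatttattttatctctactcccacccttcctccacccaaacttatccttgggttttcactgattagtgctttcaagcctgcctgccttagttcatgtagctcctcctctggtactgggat
ABCA12: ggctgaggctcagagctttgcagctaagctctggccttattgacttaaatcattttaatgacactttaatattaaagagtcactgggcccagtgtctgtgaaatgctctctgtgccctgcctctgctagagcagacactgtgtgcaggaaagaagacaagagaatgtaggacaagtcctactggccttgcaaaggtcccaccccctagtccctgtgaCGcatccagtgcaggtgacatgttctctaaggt

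ABCA5 and ABCA13 both rose in combination cells, so a CG-dense and a CG-poor start stand among the genes that rose. CCAAT, searched on both strands, was in 11 of the 52 member windows and in 32.0% of all windows. GTAAACA, searched on both strands, was in 3 member windows and 2.98% of all windows. None of the 4 stretches printed holds either motif, which says only that these letters are not there. Second annotated starts, not printed, each held 1 CCAAT for ABCB1 (chr7:87601079-87601134, 56 bases) and ABCA12 (chr2:215032087-215032336, 250 bases). The 56 bases of ABCB1 are what trimming at an exon left. Its full window (chr7:87600885-87601134, 250 bases) held 12 CG pairs and 2 CCAAT. The shares of windows with a motif were taken over full windows.

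Compared per length, as CPM per kb of annotated exon, ABCF1 had the highest level of the members in every group. It averaged 40.2 CPM per kb in combination, 47.5 in docetaxel 24 h, 58.5 in docetaxel 8 h and 50.3 in DMSO cells. The 6 taxane pumps together reached 7.40 ± 0.308 CPM per kb in combination, 6.12 ± 0.0805 in docetaxel 24 h, 6.31 ± 0.505 in docetaxel 8 h and 7.33 ± 0.066 in DMSO cells (SD, n = 3 each). ABCC10 alone made up 85.5% of that sum in combination, 91.5% in docetaxel 24 h, 95% in docetaxel 8 h and 94.2% in DMSO cells. The pump genes best known from resistant tumours, ABCB1 and ABCG2, thus stood far below ABCC10 per length in all 4 groups.

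**Figure D1:**
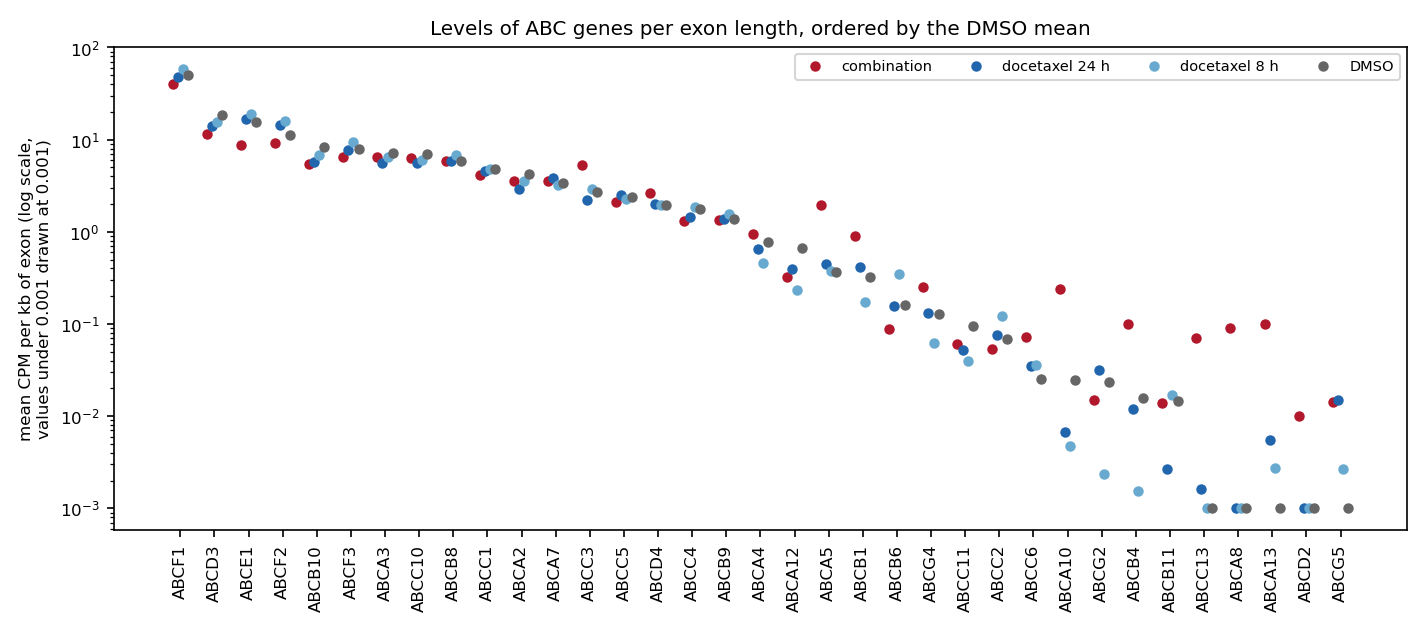
Mean level of 35 of the members that reached 0.01 CPM per kb in at least 1 group, in CPM per kb of exon on a log axis, in combination, docetaxel 24 h, docetaxel 8 h and DMSO cells (n = 3 libraries each), ordered by the DMSO mean. ABCF1 leads in every group, and at the low end ABCA10, ABCB4, ABCC13, ABCA8 and ABCA13 lie higher in combination than in the other groups.

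In combination against DMSO cells, 13 members were higher and 13 lower at an adjusted p under 0.05, of 33 tested. Among all 17780 genes tested, 31.4% were higher and 31.4% lower. In combination against docetaxel 24 h, 16 members were higher and 9 lower, beside 32.1% and 31.7% of all genes. Docetaxel 24 h against DMSO gave 2 members higher and 11 lower, beside 20.2% and 22.7%. In docetaxel 8 h against DMSO, 8 were higher and 12 lower, beside 22.5% and 24.8%. The later docetaxel time against the earlier gave 5 higher and 11 lower, beside 16.6% and 18.3%. The comparisons with DMSO share its 3 libraries, and the other comparisons each share a docetaxel group with them.

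A filter effect enters these counts. The members ABCA10, ABCA13, ABCA8, ABCB4, ABCC13 and ABCC6 reached 10 counts in every library of the combination group only. Over the 25 members with at least 10 counts in each of the 12 libraries, 6 were higher and 13 lower in combination against DMSO. Of these 25, 1 was higher and 10 lower in docetaxel 24 h against DMSO. In docetaxel 8 h against DMSO, 7 were higher and 8 lower. The shares of all genes given above cover 17780 genes and were not limited to those with 10 counts in every library.

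The docetaxel 8 h counts turned on the scaling. Scaling by library totals in place of TMM shifted the median log2 fold change of all genes by -0.15 in docetaxel 8 h against DMSO and by 0.13 in docetaxel 24 h against docetaxel 8 h. Under that scaling, 3 members were higher and 16 lower in docetaxel 8 h against DMSO, and 9 higher and 5 lower in docetaxel 24 h against docetaxel 8 h. Over all genes the same scaling gave 2288 higher and 6784 lower in the first comparison, and 5392 higher and 1655 lower in the second.

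**Figure D2:**
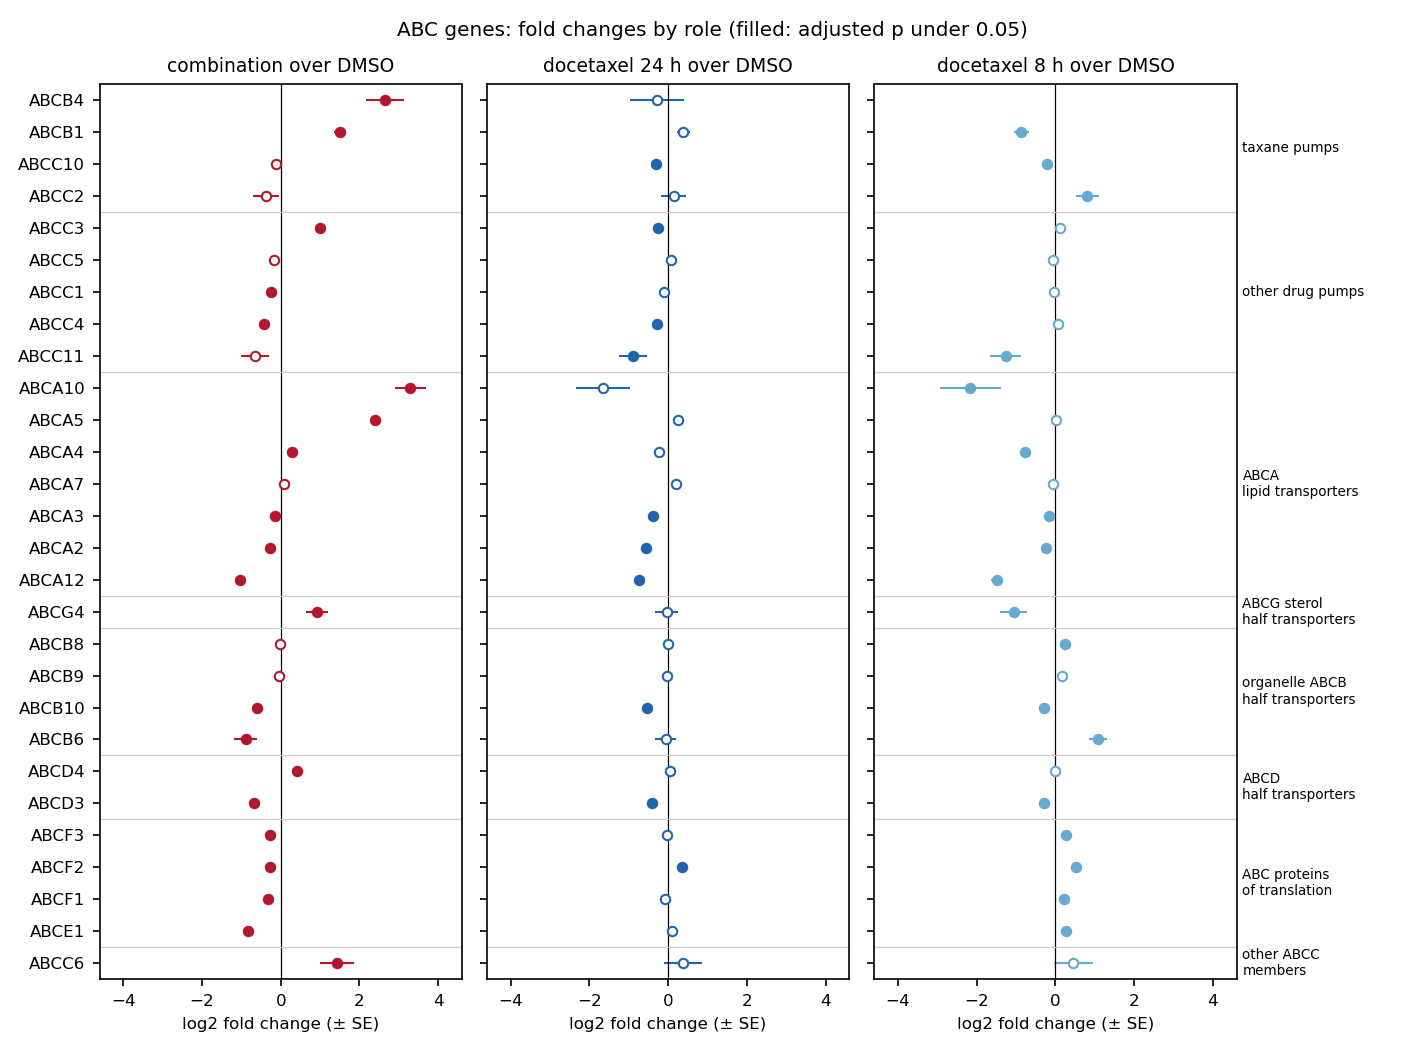
Log2 fold change over DMSO, with its SE, of 28 of the 33 tested members grouped by role, in combination, docetaxel 24 h and docetaxel 8 h cells. Filled points had an adjusted p under 0.05; ABCA8, ABCA13 and ABCC13 are left out, as is ABCB4 at docetaxel 8 h, because a group had 3 counts or fewer, and 2 further members are not shown. ABCB4, ABCB1, ABCA10 and ABCA5 lie right of 0 in combination cells, and the 4 proteins of translation lie left of 0 there and right of 0 at docetaxel 8 h.

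Among the taxane pumps, ABCB1 was higher in combination than in every other group and was lowest after docetaxel 8 h. ABCB1 had 4.71, 5.47 and 5.53 CPM in combination libraries, 2.38, 2.77 and 2.17 in docetaxel 24 h, 0.918, 1.02 and 1.11 in docetaxel 8 h and 1.59, 1.93 and 2.07 in DMSO libraries. No library of 1 group overlapped with another group. The log2 fold change was 1.5 ± 0.15 (SE) in combination against DMSO (adjusted p = 1.29e-08) and 1.11 ± 0.15 against docetaxel 24 h (adjusted p = 7.06e-07). At docetaxel 8 h it was -0.87 ± 0.19 against DMSO (adjusted p = 0.000595), and docetaxel 24 h stood 1.26 ± 0.18 above docetaxel 8 h (adjusted p = 1.03e-05). Docetaxel 24 h against DMSO gave 0.39 ± 0.16 and missed the threshold (adjusted p = 0.0573). That comparison passed without DMSO library C (0.48, adjusted p = 0.0478) or without docetaxel 24 h library C (0.48, adjusted p = 0.0446). Counts of RNA cannot tell fewer expressing cells from less RNA per cell, here or for any gene that follows. ABCB1 is also made by endothelial cells. Of the 4 endothelial markers, KDR and CDH5 were higher in combination than in DMSO cells, by 0.71 ± 0.09 and 1.89 ± 0.28 on the log2 scale. VWF did not pass, and PECAM1, too low to test, averaged 0.095 CPM in combination and 0.108 CPM in DMSO cells. Whether these levels bear on ABCB1 was not tested.

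ABCC10, or MRP7, a pump reported for docetaxel itself, moved little around a much higher level. It had 49.6, 52.7 and 51.1 CPM in combination, 45.5, 44.1 and 46.2 in docetaxel 24 h, 46.7, 53.0 and 45.7 in docetaxel 8 h and 56.8, 55.4 and 55.3 in DMSO libraries. The DMSO libraries lay above all others. ABCC10 fell by 0.30 ± 0.06 on the log2 scale in docetaxel 24 h against DMSO (adjusted p = 0.000142) and by 0.20 ± 0.06 in docetaxel 8 h against DMSO (adjusted p = 0.00448). Combination stood 0.18 ± 0.06 above docetaxel 24 h (adjusted p = 0.00956), and against DMSO it gave -0.13 ± 0.06 and missed the threshold (adjusted p = 0.0533). It passed without combination library B (-0.15, adjusted p = 0.0444), with library totals (-0.16, adjusted p = 0.0250), with no filter on low counts (-0.16, adjusted p = 0.0258), with only both groups fitted (-0.12, adjusted p = 0.0423) and with a replicate block (-0.13, adjusted p = 0.0469).

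ABCC2, or MRP2, the organic anion pump of the bile canaliculus, was higher after docetaxel 8 h alone among the groups set against DMSO. It had 0.372, 0.518 and 0.360 CPM in combination, 0.631, 0.585 and 0.581 in docetaxel 24 h, 0.770, 1.14 and 0.963 in docetaxel 8 h and 0.484, 0.412 and 0.739 in DMSO libraries. The docetaxel 8 h libraries lay above the DMSO libraries, by 0.81 ± 0.29 on the log2 scale (adjusted p = 0.0265). The call was lost without DMSO library A or B or docetaxel 8 h library B or C (adjusted p 0.0556 to 0.122). It was also lost with library totals (0.66, adjusted p = 0.0674) and with no filter on low counts (0.80, adjusted p = 0.0512). Combination against DMSO gave -0.38 ± 0.33, and docetaxel 24 h against DMSO gave 0.14 ± 0.31, neither past the threshold.

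ABCB4, which moves phosphatidylcholine into bile, was counted mainly in combination cells. Its counts were 20, 34 and 18 in combination, 4, 1 and 6 in docetaxel 24 h, 0, 0 and 1 in docetaxel 8 h and 4, 2 and 7 in DMSO libraries. Every combination library lay above all 9 others. The log2 fold change was 2.65 ± 0.49 in combination against DMSO (adjusted p = 5.71e-05) and 2.93 ± 0.50 against docetaxel 24 h (adjusted p = 2.28e-05). The single docetaxel 8 h count gave a ratio of 0.0889 to DMSO, with a 95% counting interval of 0.00209 to 0.592, and was called lower (adjusted p = 0.0228). That call was lost without DMSO library C or docetaxel 8 h library A or B (adjusted p 0.0757 to 0.108).

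ABCB11, the bile salt export pump, and ABCB5, a close relative of P-glycoprotein, were too low to test. ABCB11 had 3, 6 and 1 counts in combination, 0, 2 and 0 in docetaxel 24 h, 2, 5 and 5 in docetaxel 8 h and 8, 2 and 3 in DMSO libraries. ABCB5 had 1, 2 and 1 counts in combination, 2, 2 and 3 in docetaxel 24 h, 1, 0 and 0 in docetaxel 8 h and 0, 1 and 0 in DMSO libraries. Intervals on such counts cover counting error only, and floors cover it only for the group at 0.

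**Figure D3:**
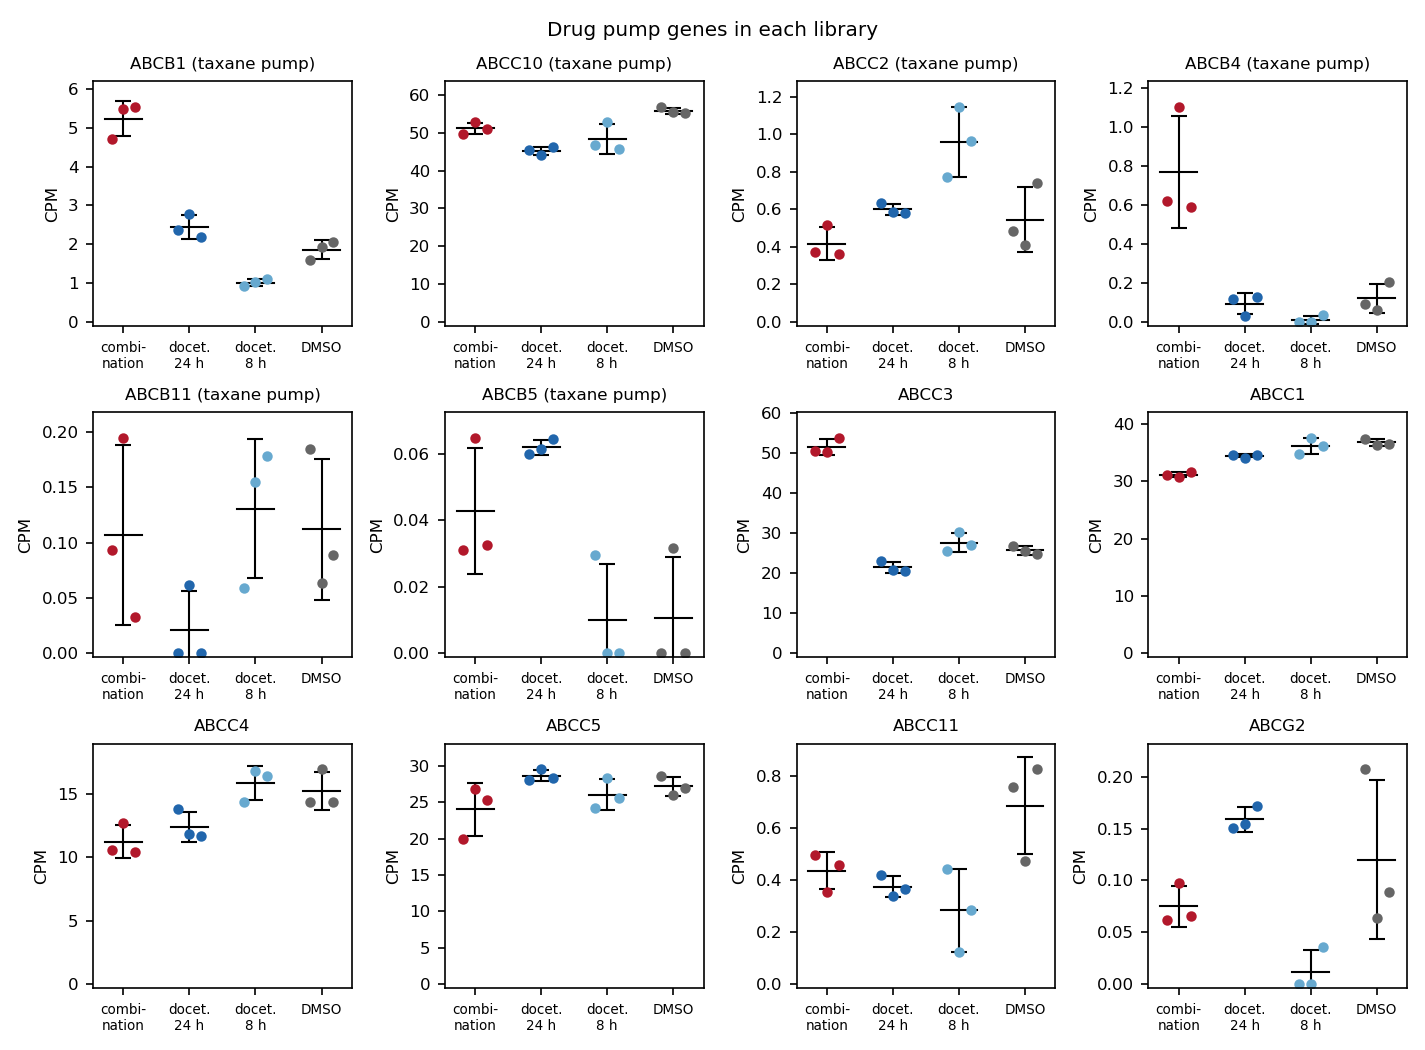
CPM of the 6 taxane pumps and the 6 other drug pumps in each library (points), with the group mean and SD (bars, n = 3), in combination, docetaxel 24 h, docetaxel 8 h and DMSO. ABCB1, ABCB4 and ABCC3 lie highest in combination libraries, and ABCC10 lies highest in DMSO libraries.

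ABCC3, or MRP3, which exports glucuronide conjugates and bile salts, was the drug pump outside the taxane list that rose in combination cells. It had 50.7, 50.2 and 53.8 CPM in combination, 23.0, 20.8 and 20.6 in docetaxel 24 h, 25.6, 30.3 and 27.2 in docetaxel 8 h and 26.9, 25.6 and 24.7 in DMSO libraries. Each combination library held more than any other library. ABCC3 stood 1.0 ± 0.07 above DMSO in combination (adjusted p = 7.73e-12) and 1.27 ± 0.07 above docetaxel 24 h (adjusted p = 1.5e-13), on the log2 scale. Docetaxel 24 h gave -0.27 ± 0.07 against DMSO (adjusted p = 0.00294) and -0.37 ± 0.07 against docetaxel 8 h.

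The remaining drug pumps fell or did not pass. ABCC4, or MRP4, which exports cyclic nucleotides and prostaglandins, gave -0.44 ± 0.10 in combination against DMSO, -0.29 ± 0.10 in docetaxel 24 h against DMSO and -0.35 ± 0.10 in docetaxel 24 h against docetaxel 8 h. Its docetaxel 24 h call against DMSO was lost without DMSO library B or docetaxel 24 h library B or C (adjusted p 0.0607 to 0.122). Its call against docetaxel 8 h was lost with library totals (-0.22, adjusted p = 0.0809). ABCC1, or MRP1, the exporter of glutathione conjugates, gave -0.24 ± 0.05 in combination against DMSO and -0.14 ± 0.05 against docetaxel 24 h. The second call was lost without combination library B or docetaxel 24 h library C (adjusted p 0.0586 and 0.0850). ABCC5, or MRP5, gave -0.26 ± 0.08 in combination against docetaxel 24 h, lost without combination library A (adjusted p = 0.109).

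ABCC11, or MRP8, a pump of apocrine secretion, had 0.495, 0.356 and 0.458 CPM in combination, 0.421, 0.339 and 0.366 in docetaxel 24 h, 0.444, 0.124 and 0.285 in docetaxel 8 h and 0.760, 0.476 and 0.827 in DMSO libraries. It gave -1.27 ± 0.39 in docetaxel 8 h against DMSO, lost without docetaxel 8 h library B (adjusted p = 0.0660). In docetaxel 24 h against DMSO it gave -0.88 ± 0.36 (adjusted p = 0.0499). This call was lost without DMSO library A or C or any docetaxel 24 h library (adjusted p 0.0642 to 0.157). It was also lost with RLE in place of TMM scaling (adjusted p = 0.0507), with DESeq2 (adjusted p = 0.0931) and with no filter on low counts (adjusted p = 0.0607). The gene shares 4.04% of its exon bases with LONP2 on the opposite strand, and whether counting used strand is not given in the sources used here. ABCG2, the breast cancer resistance protein, was too low to test, with 2, 3 and 2 counts in combination, 5, 5 and 8 in docetaxel 24 h, 0, 0 and 1 in docetaxel 8 h and 9, 2 and 3 in DMSO libraries. The docetaxel 8 h ratio to DMSO was 0.0825, with a 95% counting interval of 0.00195 to 0.542.

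Set against the rest, the taxane pumps had 2 of 4 tested members higher and 0 lower in combination against DMSO, while the other 29 tested members had 11 higher and 13 lower. ABCB4, however, passed the filter through the combination libraries alone, as did 5 of the 29. Without such members, 1 of 3 taxane pumps was higher and 0 lower (median log2 fold change -0.13), against 6 higher and 13 lower of the other 24 (median -0.25), with a median of 0.01 over all genes tested. In combination against docetaxel 24 h, 2 of the 3 were higher and 0 lower (median 0.18), against 8 higher and 9 lower of the 24 (median -0.09). In docetaxel 24 h against DMSO, 0 of the 3 were higher and 1 lower (median 0.14), against 1 higher and 10 lower of the 24 (median -0.09). In docetaxel 8 h against DMSO, 1 of the 3 was higher and 2 lower (median -0.20), against 6 higher and 8 lower of the 24 (median -0.03). Over all genes tested, 31.4% were higher and 31.4% lower in combination against DMSO, and 32.1% and 31.7% in combination against docetaxel 24 h. The shares were 20.2% and 22.7% in docetaxel 24 h against DMSO, and 22.5% and 24.8% in docetaxel 8 h against DMSO. With so few taxane pumps tested, the counts of members describe the list and do not set it apart from the rest.

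ABCB1 and ABCB4 are neighbours on chromosome 7 (hg38, minus strand, chr7:87503633-87713323 for ABCB1 and chr7:87401697-87480435 for ABCB4). RUNDC3B, on the opposite strand and starting within the ABCB1 gene, is named here after its values were seen. It averaged 4.66 CPM in combination, 2.13 in docetaxel 24 h, 1.25 in docetaxel 8 h and 1.69 in DMSO cells, the same order of groups as ABCB1. RUNDC3B gave 1.47 ± 0.16 in combination against DMSO, 1.14 ± 0.16 in combination against docetaxel 24 h and 0.77 ± 0.18 in docetaxel 24 h against docetaxel 8 h. Against DMSO, docetaxel 24 h gave 0.33 ± 0.17 (adjusted p = 0.134) and missed the threshold. Docetaxel 8 h gave -0.44 ± 0.19 (adjusted p = 0.0603) with overlapping libraries and missed it too, unlike ABCB1. The flanking genes went otherwise. CROT gave -0.10 ± 0.12 and SLC25A40 -0.27 ± 0.07 in combination against DMSO.

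Of the 9 ABCA genes tested, 5 rose and 3 fell in combination against DMSO, beside 31.4% higher and 31.4% lower of all genes. ABCA8, ABCA10 and ABCA13 passed the filter through the combination libraries alone, and of the other 6 ABCA genes 2 rose and 3 fell. ABCA8, ABCA9, ABCA6, ABCA10 and ABCA5 lie in this order on the minus strand of chromosome 17 (hg38, chr17:68867292-69327244). ABCA5, a transporter of late endosomes and lysosomes, had 22.7, 27.2 and 26.6 CPM in combination, 5.17, 5.92 and 6.40 in docetaxel 24 h, 3.88, 5.93 and 5.06 in docetaxel 8 h and 5.09, 4.57 and 4.96 in DMSO libraries. The combination libraries stood apart, and the other 3 groups lay close together. ABCA5 rose by 2.38 ± 0.12 in combination against DMSO (adjusted p = 3.45e-14) and by 2.12 ± 0.11 against docetaxel 24 h (adjusted p = 1.78e-13), on the log2 scale.

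ABCA10, next to ABCA5, had 85, 57 and 49 counts in combination, 0, 2 and 5 in docetaxel 24 h, 2, 2 and 0 in docetaxel 8 h and 6, 5 and 11 in DMSO libraries. Its log2 fold change was 3.30 ± 0.40 in combination against DMSO (adjusted p = 1.62e-07) and 4.95 ± 0.48 against docetaxel 24 h (adjusted p = 5.7e-09). Docetaxel 8 h gave -2.17 ± 0.77 against DMSO (adjusted p = 0.0242), lost without DMSO library C (adjusted p = 0.123) or docetaxel 8 h library C (adjusted p = 0.0890). ABCA5 and ABCA10 share 318 exon bases on the same strand, 3.78% of the exon bases of ABCA10, so some of their reads could be counted for either.

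ABCA8, at the other end of the cluster, had 31, 34 and 30 counts in combination libraries and 0 in each of the other 9 libraries. With 3 counts taken as the floor for a group at 0, ABCA8 came out 36.7-fold higher in combination than in DMSO. Against docetaxel 24 h it came out 37.9-fold higher. The combination counts were taken as they are, so these ratios are not strict lower limits. ABCA9 and ABCA6, between ABCA8 and ABCA10, had at most 1 and 2 counts in any library and were not tested. In the cluster the rise was thus seen at ABCA5, ABCA8 and ABCA10, with 2 genes between them near 0 throughout. ABCA8 and ABCA10 passed the filter through the combination libraries alone, so only ABCA5 was free of that filter effect. MAP2K6, beyond ABCA5, gave 0.93 ± 0.18 in combination against DMSO, and PRKAR1A, beyond ABCA8, gave 0.23 ± 0.05. FAM20A and KCNJ16, the other neighbours read, were too low to test.

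**Figure D4:**
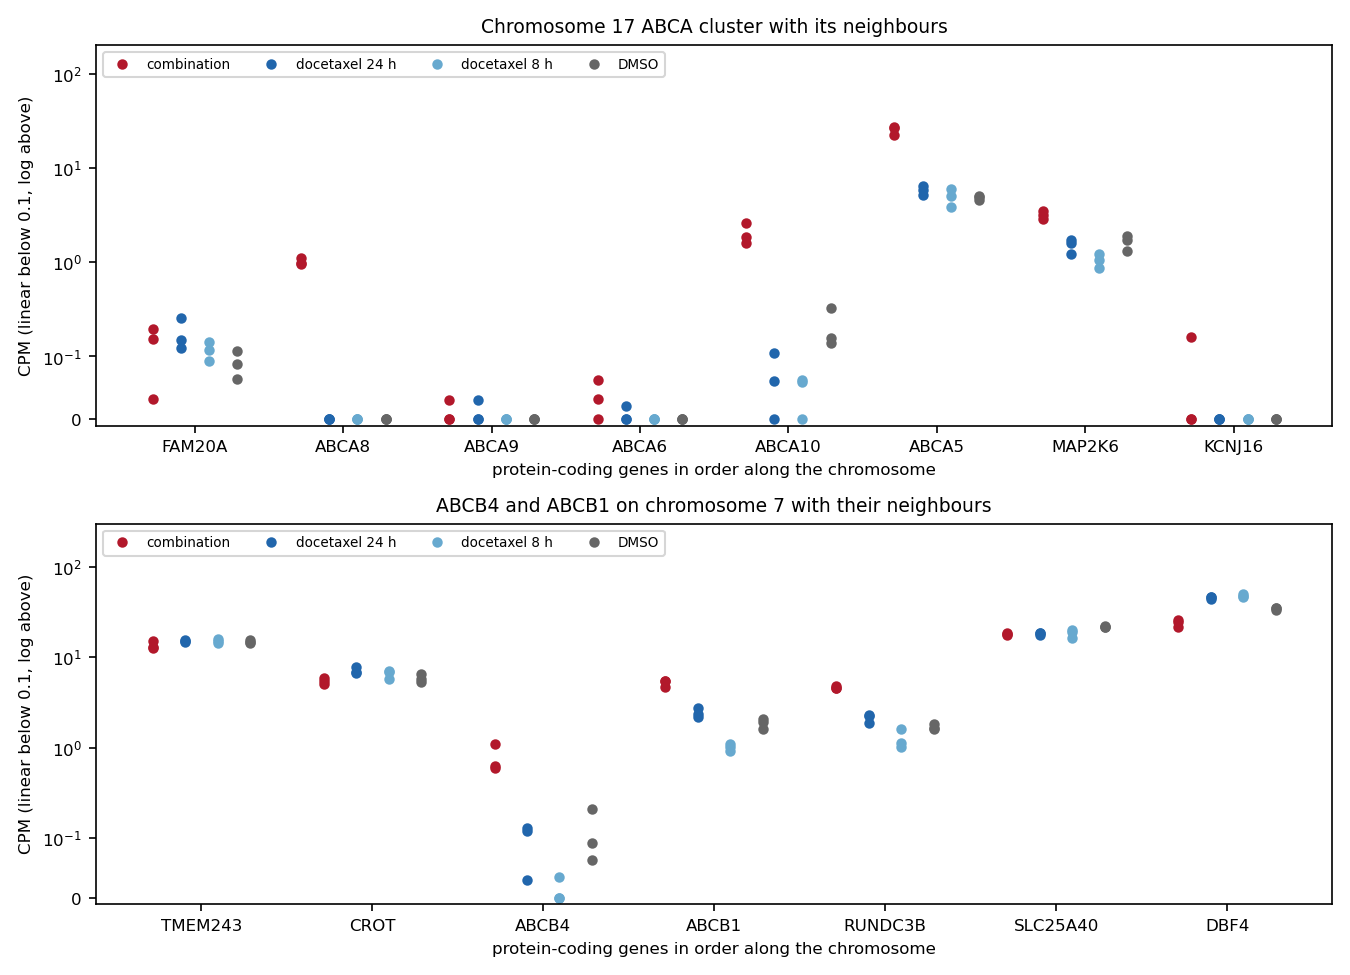
CPM in each library (points) of the protein-coding genes in chromosomal order around the chromosome 17 ABCA cluster (upper panel) and around ABCB4 and ABCB1 (lower panel), in combination, docetaxel 24 h, docetaxel 8 h and DMSO libraries. The axis is linear below 0.1 CPM and logarithmic above; ABCA8, ABCA10, ABCA5, ABCB4, ABCB1 and RUNDC3B lie highest in combination libraries, while ABCA9 and ABCA6 stay near 0.

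ABCA13, on chromosome 7, encodes a very large ABCA protein. It had 62, 64 and 52 counts in combination, 0, 6 and 6 in docetaxel 24 h, 3, 1 and 1 in docetaxel 8 h and 0 in all 3 DMSO libraries. With the same floor, it came out 68.8-fold above DMSO in combination, 3.88-fold in docetaxel 24 h and 1.93-fold in docetaxel 8 h. These too are not strict lower limits. Combination stood 4.11 ± 0.44 above docetaxel 24 h on the log2 scale (adjusted p = 5.15e-08). The docetaxel 24 h libraries overlapped with DMSO at 0. The docetaxel 8 h call rested on 5 counts and was lost without DMSO library A, B or C or docetaxel 8 h library A or C (adjusted p 0.0566 to 0.153), and with library totals (adjusted p = 0.0554).

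ABCA12, which loads glucosylceramide into the lamellar granules of keratinocytes, fell in all 3 comparisons with DMSO. It had 2.94, 3.53 and 2.71 CPM in combination, 3.37, 4.16 and 3.75 in docetaxel 24 h, 2.10, 2.78 and 1.71 in docetaxel 8 h and 5.94, 6.44 and 6.32 in DMSO libraries. Every treated library lay below every DMSO library. The log2 fold change against DMSO was -1.02 ± 0.15 in combination (adjusted p = 1.97e-06), -0.73 ± 0.14 in docetaxel 24 h (adjusted p = 0.000196) and -1.49 ± 0.15 in docetaxel 8 h (adjusted p = 4.21e-08). Docetaxel 24 h stood 0.76 ± 0.16 above docetaxel 8 h (adjusted p = 0.000633).

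ABCA4, the retinoid flippase of photoreceptors, had 7.86, 8.00 and 8.50 CPM in combination, 5.35, 5.95 and 5.56 in docetaxel 24 h, 3.61, 3.74 and 4.35 in docetaxel 8 h and 7.07, 6.69 and 6.12 in DMSO libraries. Its lowest libraries were those of docetaxel 8 h, at -0.77 ± 0.11 against DMSO (adjusted p = 5.31e-06). Docetaxel 24 h stood 0.53 ± 0.11 above docetaxel 8 h, and combination 0.53 ± 0.10 above docetaxel 24 h. Combination against DMSO gave 0.29 ± 0.10 (adjusted p = 0.0175), lost without DMSO library C (adjusted p = 0.0809) or combination library C (adjusted p = 0.0660). That call was also lost with no filter on low counts (0.25, adjusted p = 0.0849).

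The more abundant ABCA genes moved by less. ABCA2, an endosomal and lysosomal transporter best known in oligodendrocytes, gave -0.26 ± 0.06 in combination, -0.56 ± 0.06 in docetaxel 24 h and -0.23 ± 0.06 in docetaxel 8 h against DMSO. ABCA3, which fills surfactant lamellar bodies in lung, gave -0.14 ± 0.05, -0.37 ± 0.05 and -0.16 ± 0.05 in the same comparisons. For both genes docetaxel 24 h was the lowest group, with -0.32 ± 0.06 for ABCA2 and -0.21 ± 0.05 for ABCA3 against docetaxel 8 h. Combination stood 0.29 ± 0.06 and 0.24 ± 0.05 above docetaxel 24 h for the same genes. With library totals, the ABCA3 call in docetaxel 24 h against docetaxel 8 h was lost (-0.08, adjusted p = 0.247). The ABCA3 calls against DMSO were lost in combination without DMSO library B or C or combination library B (adjusted p 0.0608 to 0.132), and in docetaxel 8 h without DMSO library B or C (adjusted p 0.106 and 0.0976). ABCA7, linked to Alzheimer's disease risk, changed only in docetaxel 24 h against docetaxel 8 h among the 5 comparisons, by 0.25 ± 0.08, lost without docetaxel 24 h library A or C (adjusted p 0.0501 and 0.124).

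ABCG4, a sterol transporter best known in brain, had 42, 45 and 59 counts in combination, 31, 33 and 24 in docetaxel 24 h, 14, 14 and 9 in docetaxel 8 h and 41, 16 and 33 in DMSO libraries. Combination lay highest and docetaxel 8 h lowest. The log2 fold change was 0.93 ± 0.28 in combination against DMSO (adjusted p = 0.00608), 0.96 ± 0.28 in combination against docetaxel 24 h and 1.02 ± 0.35 in docetaxel 24 h against docetaxel 8 h. It was -1.06 ± 0.35 in docetaxel 8 h against DMSO, lost without DMSO library A or C or docetaxel 8 h library C (adjusted p 0.0533 to 0.0706). The docetaxel 24 h against docetaxel 8 h call was lost without docetaxel 8 h library C or docetaxel 24 h library A or B (adjusted p 0.0781 to 0.104). ABCG5 and ABCG8, the paired sterol exporters of gut and liver, had 12 and 3 counts over all 12 libraries.

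The mitochondrial and lysosomal ABCB transporters moved in both directions. ABCB6, a porphyrin transporter, had 0.464, 0.421 and 0.490 CPM in combination, 1.11, 0.709 and 0.668 in docetaxel 24 h, 1.84, 1.54 and 2.07 in docetaxel 8 h and 1.04, 0.698 and 0.798 in DMSO libraries. Docetaxel 8 h stood highest, at 1.08 ± 0.24 against DMSO (adjusted p = 0.000689), and docetaxel 24 h gave -1.14 ± 0.24 against docetaxel 8 h (adjusted p = 0.000686). Combination was lowest, at -0.89 ± 0.29 against DMSO, lost without DMSO library A (adjusted p = 0.0785), and at -0.83 ± 0.30 against docetaxel 24 h, lost without combination library B or docetaxel 24 h library A (adjusted p 0.0548 and 0.115). The gene AC068946.2 covers 54.7% of the exon bases of ABCB6 on the same strand, so reads there could be counted for either gene or for neither. Over all 12 libraries AC068946.2 had 15 counts and ABCB6 398.

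ABCB10, which acts in mitochondrial heme synthesis, had 22.4, 23.6 and 24.2 CPM in combination, 24.8, 25.3 and 23.7 in docetaxel 24 h, 24.9, 33.9 and 27.7 in docetaxel 8 h and 35.0, 34.3 and 37.3 in DMSO libraries. It gave -0.60 ± 0.08 in combination (adjusted p = 9.53e-07), -0.53 ± 0.08 in docetaxel 24 h and -0.30 ± 0.08 in docetaxel 8 h against DMSO. Docetaxel 24 h against docetaxel 8 h gave -0.23 ± 0.08, with overlapping libraries. It lost its call without docetaxel 8 h library B or docetaxel 24 h library A or C (adjusted p 0.0544 to 0.318). That call was also lost with library totals (-0.10, adjusted p = 0.383) and with only both groups fitted (-0.23, adjusted p = 0.0685). ABCB8, a mitochondrial transporter, gave 0.23 ± 0.06 in docetaxel 8 h against DMSO and -0.24 ± 0.06 in docetaxel 24 h against docetaxel 8 h; with library totals both calls were lost (0.07 and -0.11). ABCB9, a lysosomal peptide transporter, passed in none of the 5 comparisons, with log2 values from -0.18 to 0.16.

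Among the ABCD transporters, ABCD3 fell in combination and the lysosomal ABCD4 rose. ABCD3, or PMP70, a peroxisomal membrane transporter, had 92.0, 91.6 and 80.9 CPM in combination, 109, 112 and 98.7 in docetaxel 24 h, 113, 122 and 115 in docetaxel 8 h and 140, 147 and 139 in DMSO libraries. It gave -0.69 ± 0.06 in combination (adjusted p = 5.19e-10), -0.42 ± 0.06 in docetaxel 24 h and -0.28 ± 0.06 in docetaxel 8 h against DMSO, and -0.27 ± 0.06 in combination against docetaxel 24 h. ABCD4, which helps cobalamin leave lysosomes, gave 0.42 ± 0.07 in combination against DMSO and 0.37 ± 0.07 against docetaxel 24 h. ABCD2 had 6 counts, all in combination libraries, and was not tested.

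The 4 ABC proteins of translation moved together, up at docetaxel 8 h and down in combination. ABCE1, which splits ribosomes for recycling, had 54.4, 57.1 and 53.5 CPM in combination, 98.9, 108 and 109 in docetaxel 24 h, 119, 117 and 122 in docetaxel 8 h and 98.7, 99.0 and 97.5 in DMSO libraries. The combination libraries lay far below all others, and the docetaxel 8 h libraries lay above all others. ABCE1 gave -0.84 ± 0.05 in combination against DMSO (adjusted p = 1.58e-12) and -0.94 ± 0.05 against docetaxel 24 h (adjusted p = 2.08e-13). ABCF1, which acts in translation initiation, had 191, 178 and 176 CPM in combination, 226, 212 and 207 in docetaxel 24 h, 273, 259 and 261 in docetaxel 8 h and 230, 226 and 226 in DMSO libraries. ABCF2 had 40.1, 38.1 and 37.4 CPM in combination, 60.1, 57.1 and 61.4 in docetaxel 24 h, 73.4, 61.7 and 66.4 in docetaxel 8 h and 45.0, 48.0 and 47.6 in DMSO libraries. With ABCE1, 4 of 4 were lower in combination against DMSO, beside 31.4% of all genes tested. For ABCF1, ABCF2 and ABCF3, combination gave -0.32 ± 0.05, -0.28 ± 0.06 and -0.28 ± 0.06 against DMSO. Against docetaxel 24 h the same genes gave -0.24 ± 0.05, -0.63 ± 0.06 and -0.25 ± 0.06.

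In docetaxel 8 h against DMSO, ABCE1 gave 0.28 ± 0.05, ABCF1 0.22 ± 0.05, ABCF2 0.52 ± 0.06 and ABCF3 0.28 ± 0.06. So 4 of 4 were higher, beside 22.5% of all genes tested. With library totals, ABCF1 (0.06) and ABCF3 (0.12) no longer passed, while all 4 stayed above 0. In docetaxel 24 h against docetaxel 8 h, ABCE1 gave -0.18 ± 0.05, ABCF1 -0.30 ± 0.05, ABCF2 -0.17 ± 0.06 and ABCF3 -0.31 ± 0.06. With library totals, ABCE1 (-0.05) and ABCF2 (-0.04) no longer passed. The ABCF2 call was also lost without docetaxel 8 h library A or C or docetaxel 24 h library B (adjusted p 0.0502 to 0.186). Fitting only both groups lost it too (-0.17, adjusted p = 0.0562). In docetaxel 24 h against DMSO, ABCF2 was the member of the 4 that passed, at 0.35 ± 0.06 (adjusted p = 6.41e-05). The gene AC021097.2 covers 45.8% of the exon bases of ABCF2 on the same strand. Over all 12 libraries AC021097.2 had 3 counts and ABCF2 21737.

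**Figure D5:**
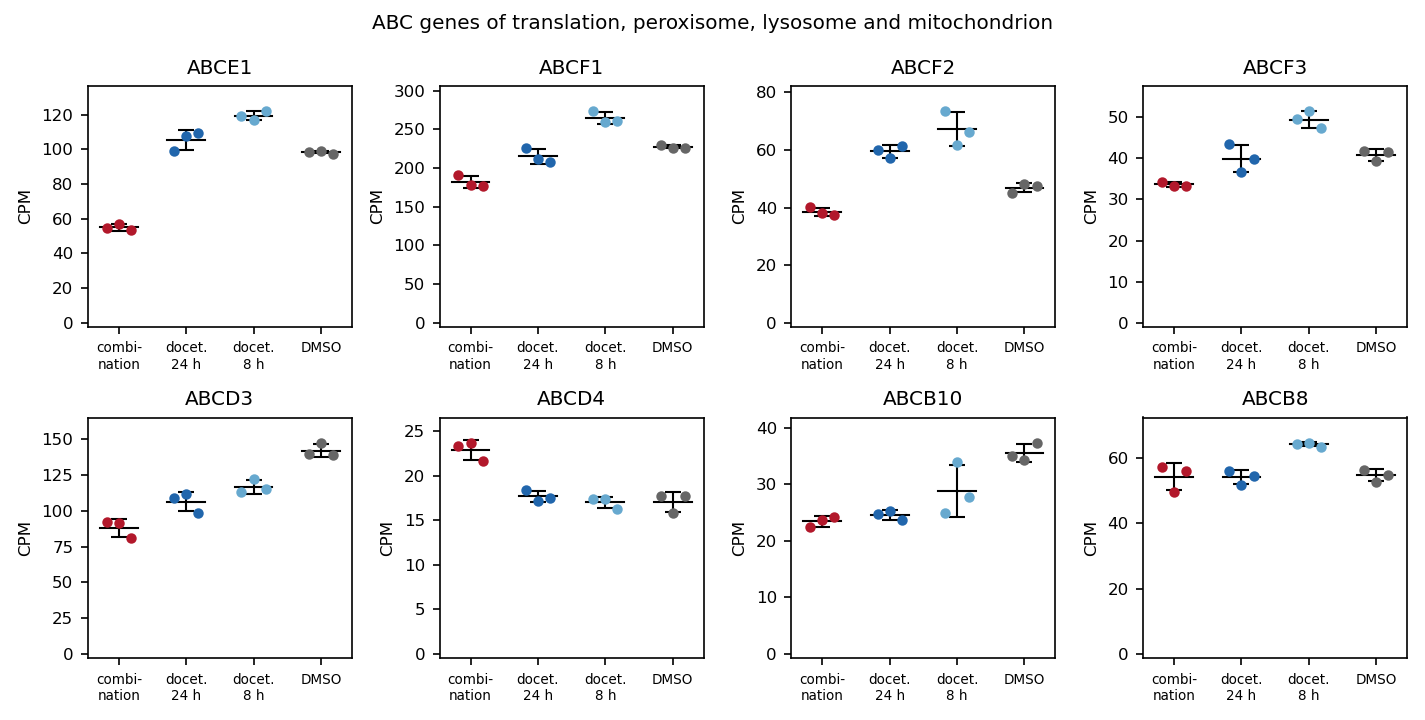
CPM in each library (points), with the group mean and SD (bars, n = 3), of the 4 proteins of translation (ABCE1, ABCF1, ABCF2, ABCF3), the peroxisomal ABCD3, the lysosomal ABCD4 and the mitochondrial ABCB10 and ABCB8, in combination, docetaxel 24 h, docetaxel 8 h and DMSO libraries. ABCE1 and ABCF1 to ABCF3 lie lowest in combination and highest at docetaxel 8 h, and ABCD4 lies highest in combination.

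The other ABCC members were at the edge of detection. ABCC13, annotated as a transcribed pseudogene, had 30, 22 and 19 counts in combination, 1, 0 and 1 in docetaxel 24 h, 1, 0 and 0 in docetaxel 8 h and 1, 0 and 0 in DMSO libraries. The combination ratio to DMSO was 82.4, with a 95% counting interval of 14.3 to 3299, and to docetaxel 24 h it was 42.5, with an interval of 11.3 to 357. ABCC6, a liver transporter whose loss lets tissues calcify, had 18, 13 and 20 counts in combination, 8, 10 and 11 in docetaxel 24 h, 11, 9 and 6 in docetaxel 8 h and 14, 6 and 2 in DMSO libraries. It gave 1.43 ± 0.43 in combination against DMSO (adjusted p = 0.00632). Against docetaxel 24 h it gave 1.06 ± 0.41, lost without combination library A or C or docetaxel 24 h library A or C (adjusted p 0.0638 to 0.108). ABCC6 has near-identical pseudogene copies, so its counts are uncertain. ABCC8 and ABCC9, the sulfonylurea receptors of potassium channels, and ABCC12 had 12, 0 and 4 counts over the 12 libraries.

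ABC genes outside the rule did not move as 1 group. Of TAP1, TAP2, CFTR, ABCA1 and ABCG1, all tested, 1 was higher and 2 lower in combination against DMSO, 2 higher and 1 lower in docetaxel 24 h against DMSO, and 1 higher and 2 lower in docetaxel 8 h against DMSO. Over all genes, the shares higher and lower were 31.4% and 31.4%, 20.2% and 22.7%, and 22.5% and 24.8% in these comparisons. ABCG1, a sterol exporter, gave 1.39 ± 0.15 in combination against DMSO. CFTR, the chloride channel, gave -1.82 ± 0.56 in the same comparison. ABCA1, the cholesterol exporter, gave -0.99 ± 0.26 in docetaxel 8 h against DMSO.

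Of 9 known regulators of pump genes, 7 could be tested. In combination against DMSO 1 was higher and 3 lower, in docetaxel 24 h against DMSO 1 higher and 1 lower, and in docetaxel 8 h against DMSO 4 higher and 1 lower, to be read beside the same shares of all genes. NR1H3, a sterol-sensing nuclear receptor, gave 0.63 ± 0.07 in combination, and YBX1, a factor reported to act on the ABCB1 promoter, gave -0.28 ± 0.05 in combination, 0.27 ± 0.05 in docetaxel 24 h and 0.37 ± 0.05 in docetaxel 8 h, each against DMSO. NR1I2, the xenobiotic receptor that drives ABCB1 in liver and gut, was not tested and had 0 counts in docetaxel 24 h and DMSO libraries. The 6 genes of docetaxel uptake and metabolism, among them SLCO1B3 and CYP3A4, had at most 42 counts per group together, and none could be tested.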

How the data were processed

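Per the labels, total RNA came from a Qiagen RNeasy Plus kit, and messages bound to poly-T beads were copied with random hexamers. The authors deposited raw read counts per gene for each of the 12 libraries. The submitters' processing notes name fastp, HISAT2 2.0.5, DESeq2 and hg38; how reads were counted, and with which gene models and strand handling, is not given in the sources used here. The deposited counts were used as they are, one row per table row, with repeated symbols kept apart. GENCODE v29 gave positions and exon lengths, and RefSeq the promoter windows.

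Genes were filtered with filterByExpr (minimum count 10), which left 17780. edgeR 4.0.16 (R 4.3.3) fitted a quasi-likelihood model with TMM scaling and 1 mean per group over all 12 libraries (8 residual degrees of freedom, biological coefficient of variation 5.59%). P-values were adjusted over all tested genes by Benjamini-Hochberg, with a threshold of 0.05. CPM used TMM-scaled totals (factors 0.917 to 1.05). SE is the log2 fold change over the square root of F. A gene with 0 counts in a group was set against 3 counts over that group; with 1 to 3 counts the ratio has an exact 95% interval. Genes of a few counts per library could change the call with 1 library, and so could small changes of abundant members, as stated beside them.

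Members past the threshold are named, except some that enter the counts and are not reported here. Members, roles and lists were chosen with earlier results of these data known. The procedure was tested on simulated data. Alternatives were other scalings, DESeq2 1.42.0, no filter, pairs of groups fitted alone, a replicate block, and leaving out each library.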

Additional observations from a re-analysis of the deposited data

Results flagged for a closer look

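Docetaxel 24 h and docetaxel 8 h, 2 times under the same drug, were set against the same DMSO libraries. In the direct comparison of docetaxel 24 h against docetaxel 8 h, 16 of 33 tested members differed (edgeR, adjusted p under 0.05). Over all 17780 genes tested, 16.6% were higher and 18.3% lower. The log2 difference was 1.26 for ABCB1, 1.02 for ABCG4, 0.76 for ABCA12, 0.53 for ABCA4 and 0.25 for ABCA7, which were higher at docetaxel 24 h. It was -1.14 for ABCB6, -0.37 for ABCC3, -0.35 for ABCC4, -0.32 for ABCA2, -0.31 for ABCF3, -0.30 for ABCF1, -0.24 for ABCB8, -0.23 for ABCB10, -0.21 for ABCA3, -0.18 for ABCE1 and -0.17 for ABCF2, which were lower at docetaxel 24 h. These signs hold relative to TMM scaling. Library totals moved the median of all genes by 0.13 in this comparison, and no vehicle at 8 h was used here. The calls of ABCG4, ABCA7, ABCC4, ABCB8, ABCB10, ABCA3, ABCE1 and ABCF2 were each lost under some other setting, as given above.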

How the results depend on the processing

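Of 1302 repeats of 109 results under other settings, 1205 kept direction and side of the threshold, 83 lost a call, 10 gained one and 4 changed sign. Scaling by library totals changed the counts most: members higher in docetaxel 8 h against DMSO came to 3 in place of 8, members higher in docetaxel 24 h against docetaxel 8 h to 9 in place of 5, and members lower there to 5 in place of 11. Leaving out 1 library gave 3 to 6 members higher in docetaxel 24 h against docetaxel 8 h; the 3 came without docetaxel 24 h replicate A. The sign turned for values that passed no test. ABCC10 turned in docetaxel 24 h against docetaxel 8 h with library totals (0.032). Leaving out 1 library turned ABCB4 (-0.63 to 0.28) and ABCC2 (-0.0022 to 0.41) in docetaxel 24 h against DMSO. ABCB4 had 11 counts in the docetaxel 24 h group and 13 in the DMSO group. Beyond those stated constructions the cause was not tested.

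The replicate letters did not pair the libraries, with same-letter correlations of deviations from -0.134 to 0.055. With a replicate block, ABCC10 in combination against DMSO passed (-0.13, adjusted p = 0.0469) and ABCA13 in docetaxel 8 h against DMSO did not (adjusted p = 0.0583); members higher and lower numbered 13 and 15 in combination against DMSO, 3 and 11 in docetaxel 24 h against DMSO and 7 and 12 in docetaxel 8 h against DMSO. At this depth, genes with a few counts per library could not be compared firmly.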
